A study of Mus musculus with 12 samples.

Results

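p53 is a transcription factor that damaged or stressed cells stabilise, and its targets carry out the response. The genes described here are direct or closely linked p53 targets that span its main outputs: braking the cell cycle (Cdkn1a), switching p53 off again (Mdm2, Ccng1), reinforcing it (Trp53inp1), triggering mitochondrial death (Bbc3, Bax), restraining growth signalling (Ddit4l, Sesn1, Phlda3) and sensing an outside ligand (Eda2r). Mouse embryonic stem cells hold p53 at a high level but are known for a weak G1 checkpoint, so the basal level of such targets is often used to read the state of the pathway. The genes were chosen by name, with earlier results of these data known, and read from probe sets that the array annotation gives to a single gene symbol. Of 10 genes 9 had such a probe set, 1 each, among 22180 genes measured, and Bax was not analysed here.

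All 12 samples were mouse embryonic stem cells with a tdTomato reporter driven by the retroviral element MERVL, 3 arrays to a group. KO+Mut cells lacked endogenous Dppa2 and Dppa4 and were transfected with GFP-tagged forms of both that are deficient in SUMO, a small protein attached to other proteins after translation. KO+WT cells were the same knockout given the wild-type GFP-tagged pair, KO cells were the knockout alone, and parental cells carried the reporter with neither gene deleted. All groups were grown on gelatin in medium with LIF and 15% knockout serum replacement. The add-back cells were sorted for GFP after lipofection, and the labels do not say this of KO or parental cells, so add-back cannot be told apart from transfection and sorting in any comparison with those groups. The labels name no clone, so whether the KO cells come from 1 or several is not known here. The arrays are labelled biological replicates with no word on separate cultures, and the p-values therefore rest on array-to-array spread that may be technical.

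The values are log2 signals, in which 1 unit is a 2-fold difference. A gene was called where its limma p, adjusted by Benjamini-Hochberg over all 22180 genes, was under 0.05. Array medians ran from 3.73 to 3.88 and lower quartiles from 2.36 to 2.47. The 15 pluripotency markers had a median percentile of 96.4 to 97.1 on the arrays. Nanog, Zfp42, Tdgf1 and Utf1 lay at percentile 98.3 or higher of all probe sets on every array, Pou5f1 between percentiles 82.2 and 84.3, and Dppa5a between 50.3 and 58.7. The 15 fibroblast markers had a median percentile of 52.3 to 62.6 and ranged widely. Lum and Dcn did not exceed percentiles 14.3 and 25.2, while Vim and Fn1, which many cell types express, lay at 97.1 or higher, and Pdgfrb lay between 68.6 and 80.4. Dppa2 read 11.12, 11.30 and 11.17 in KO+Mut, 10.79, 11.34 and 11.11 in KO+WT, 8.13, 8.69 and 8.63 in KO and 9.35, 9.81 and 10.17 in parental cells. It was lowest in KO cells and highest with add-back, with no overlap between KO, parental and add-back arrays. Dppa4 read 10.55, 10.67 and 10.39 in KO+Mut, 10.09, 10.58 and 10.49 in KO+WT, 7.92, 7.63 and 7.31 in KO and 8.24, 8.58 and 8.56 in parental cells, in the same order of groups. In KO against parental cells Dppa2 was called lower (-1.29, limma adjusted p = 0.0259), while Dppa4 did not pass (-0.84, limma adjusted p = 0.102). On KO arrays Dppa2 still lay at percentiles 93 to 95.4 of the probe sets and Dppa4 at 87.3 to 91.7. Where the probes of both lie with respect to the deleted stretch was not stated.

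Ddit4l was the gene of the 9 whose signal followed the add-back, and its promoter is shown beside those of Cdkn1a and Mdm2, the best known targets, which did not pass any test. Each sequence gives the 250 bases before a RefSeq transcription start (assembly GRCm38.p6), 5′ to 3′ in the direction of the gene, with matches to the p53 half-site consensus of 10 bases in capitals. The windows are chr3:137623422-137623671 on the plus strand for Ddit4l, chr17:29090729-29090978 on the plus strand for the upstream one of 2 Cdkn1a starts, and chr10:117710759-117711008 on the minus strand for Mdm2.
Ddit4l: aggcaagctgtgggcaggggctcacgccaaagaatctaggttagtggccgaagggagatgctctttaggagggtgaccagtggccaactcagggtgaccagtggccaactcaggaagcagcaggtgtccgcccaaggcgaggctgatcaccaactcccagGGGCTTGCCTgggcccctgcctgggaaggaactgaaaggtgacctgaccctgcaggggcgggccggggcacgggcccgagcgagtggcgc
Cdkn1a: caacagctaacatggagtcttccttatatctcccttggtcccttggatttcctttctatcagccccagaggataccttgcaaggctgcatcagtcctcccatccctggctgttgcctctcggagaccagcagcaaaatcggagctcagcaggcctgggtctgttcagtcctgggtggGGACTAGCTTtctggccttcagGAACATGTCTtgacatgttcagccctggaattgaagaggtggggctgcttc
Mdm2: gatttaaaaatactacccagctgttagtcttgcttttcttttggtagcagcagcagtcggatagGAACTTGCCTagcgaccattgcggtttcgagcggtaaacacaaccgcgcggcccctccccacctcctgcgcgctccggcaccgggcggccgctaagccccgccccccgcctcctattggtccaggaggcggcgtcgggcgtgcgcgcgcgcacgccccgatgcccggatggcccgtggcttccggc
The consensus reads the same on both strands, so 1 search covers them. Promoters were in the RefSeq table for 8 of the 9 genes, with 12 starts, and 5 genes held a half-site at 1 start: Ddit4l, Cdkn1a, Mdm2, Ccng1 and Sesn1. The match in Ddit4l begins 90 bases before the start, and those in Mdm2 and Ccng1 begin 186 and 185 bases before theirs. Cdkn1a held 2, beginning 73 and 51 bases before the upstream start, and none at its other start. By start, 5 of the 12 held a match, where 7.13% of all 32851 starts listed did. By gene, 5 of the 8 did, where 8.20% of 27025 symbols did. A match of these letters describes the sequence and is no measure of p53 binding. The gene that rose and genes that did not pass both hold one.

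**Figure D1:**
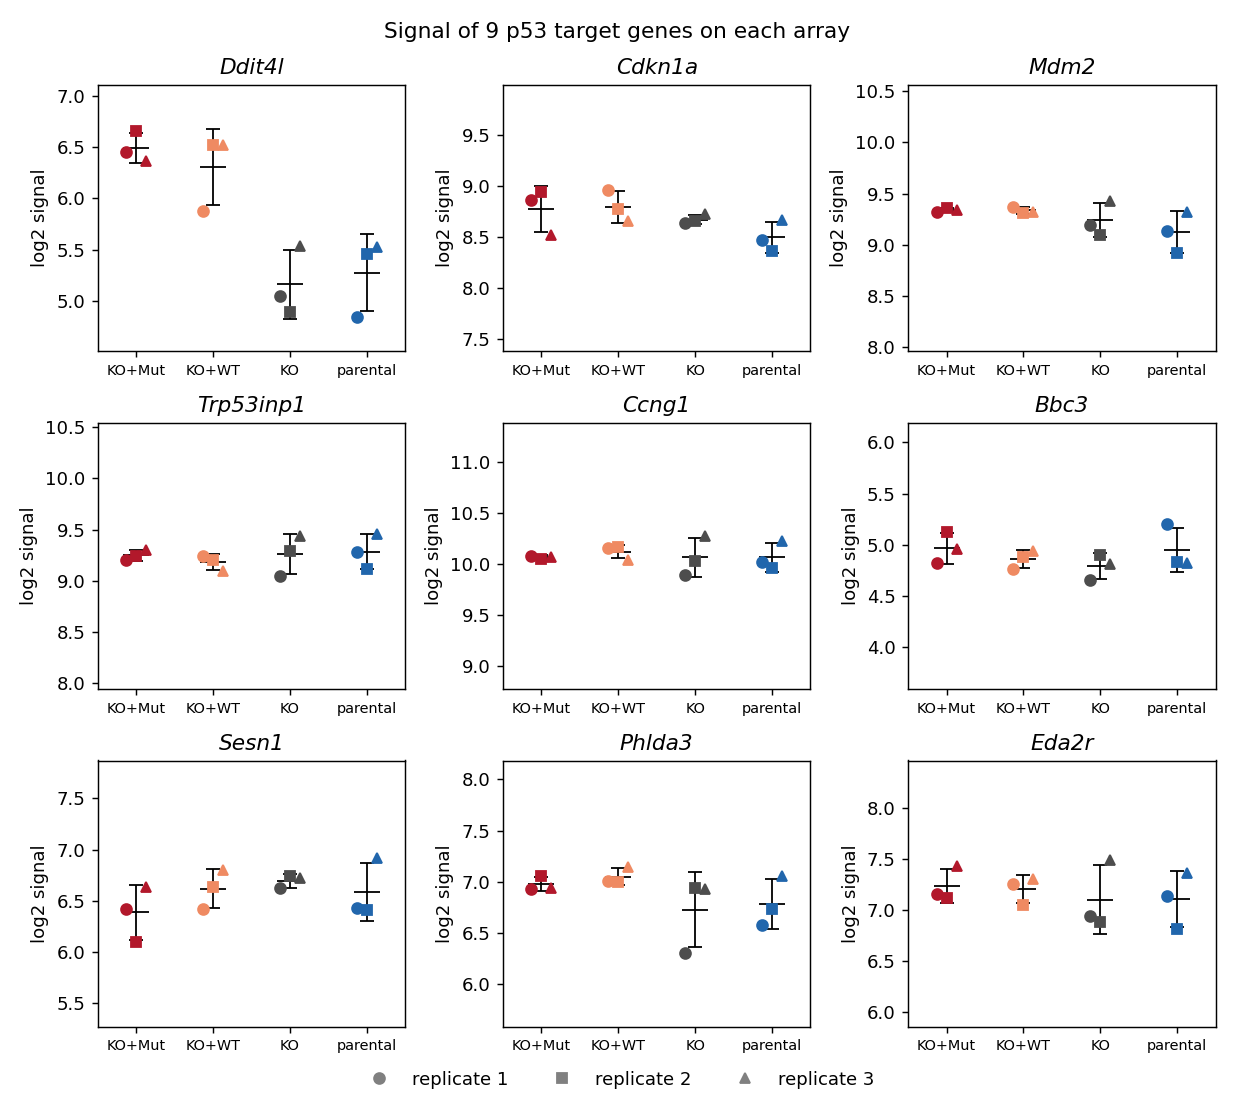
Log2 signal (vertical axis) of each of the 9 genes on every array by group, with replicates 1 to 3 as circles, squares and triangles and bars for the mean and SD of 3 arrays. Every panel spans the same number of log2 units. The KO+Mut and KO+WT arrays of Ddit4l lie between 5.87 and 6.66, above all KO and parental arrays (4.84 to 5.54), and the groups of the other genes overlap except Phlda3 in KO+WT against KO.

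The growth signalling group held the single change. Ddit4l encodes an inhibitor of the growth kinase complex mTORC1 and is a paralog of the stress gene Ddit4. Its signal was 6.45, 6.66 and 6.37 in KO+Mut, 5.87, 6.52 and 6.52 in KO+WT, 5.05, 4.89 and 5.54 in KO and 4.84, 5.46 and 5.53 in parental cells (replicates 1, 2 and 3). Every add-back array was above every KO and parental array, and the lowest add-back value, KO+WT replicate 1, was 5.87. Ddit4l lay between percentiles 64.3 and 82.6 of the probe sets of an array, so its signal was of middle height.

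Against KO cells, Ddit4l rose by 1.33 with the SUMO-deficient proteins (log2, SE 0.23, n = 3 arrays per group, limma adjusted p = 0.0113), a 2.51-fold difference. With the wild-type proteins it rose by 1.14 (SE 0.23, limma adjusted p = 0.0384), or 2.21-fold. It was the 1 gene of 9 called higher in each of these comparisons, where 1.12% (KO+Mut) and 0.73% (KO+WT) of all genes were called higher. The 9 genes were chosen with earlier results of these data known, so this count is no test of the list. Of all genes, 9.24% (KO+Mut) and 8.61% (KO+WT) had add-back arrays that were all above the KO arrays. Both comparisons use the same KO arrays, so they are not independent. The KO+WT call was lost after centring each array on its median (1.07, adjusted p = 0.0705), after a repeated quantile normalization (adjusted p = 0.0515), in a fit of the 6 arrays alone (adjusted p = 0.111) and without KO+WT replicate 2 or 3 or KO replicate 1 or 2 (adjusted p = 0.144, 0.121, 0.123 and 0.15). The KO+Mut call was lost without KO+Mut replicate 2, KO replicate 1 or KO replicate 2 (adjusted p = 0.0734, 0.0525 and 0.0585).

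Relative to parental cells, which were never given extra Dppa2 or Dppa4, Ddit4l rose by 1.22 in KO+Mut (SE 0.23, limma adjusted p = 0.0247), or 2.32-fold, and was the 1 gene of 9 called, against 0.654% of all genes called higher. Of all genes, 8.63% (KO+Mut) and 8.05% (KO+WT) had add-back arrays that were all above the parental arrays. In KO+WT cells the difference from parental cells was 1.03 (SE 0.23) and did not pass (limma adjusted p = 0.0798), with none of the 9 called and 0.55% of all genes called in either direction. With the replicate number as a block it passed (adjusted p = 0.0283), and it also passed without KO+WT replicate 1 (adjusted p = 0.0281). The KO+Mut call was lost without KO+Mut replicate 1, 2 or 3 (adjusted p = 0.0645, 0.128 and 0.0591) and without parental replicate 1 or 2 (0.0942 and 0.0586). Deletion itself did not move Ddit4l past the threshold: KO cells averaged 5.16 ± 0.34 and parental cells 5.28 ± 0.38 (SD, n = 3 each), a difference of -0.11 with a 95% interval of -0.61 to 0.38.

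Whether SUMO attachment matters was asked by setting KO+Mut against KO+WT, which share transfection and sorting. Ddit4l averaged 6.49 ± 0.15 in KO+Mut and 6.31 ± 0.37 in KO+WT cells (SD, n = 3 each). The difference was 0.19 with a 95% interval of -0.31 to 0.68 (limma adjusted p = 1), and the arrays overlapped. Of the 9 genes 0 were called by limma here, and 0 had an unadjusted p under 0.05. Of all genes 0% were called, with 675 genes (3.04%) at an unadjusted p under 0.05.

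**Figure D2:**
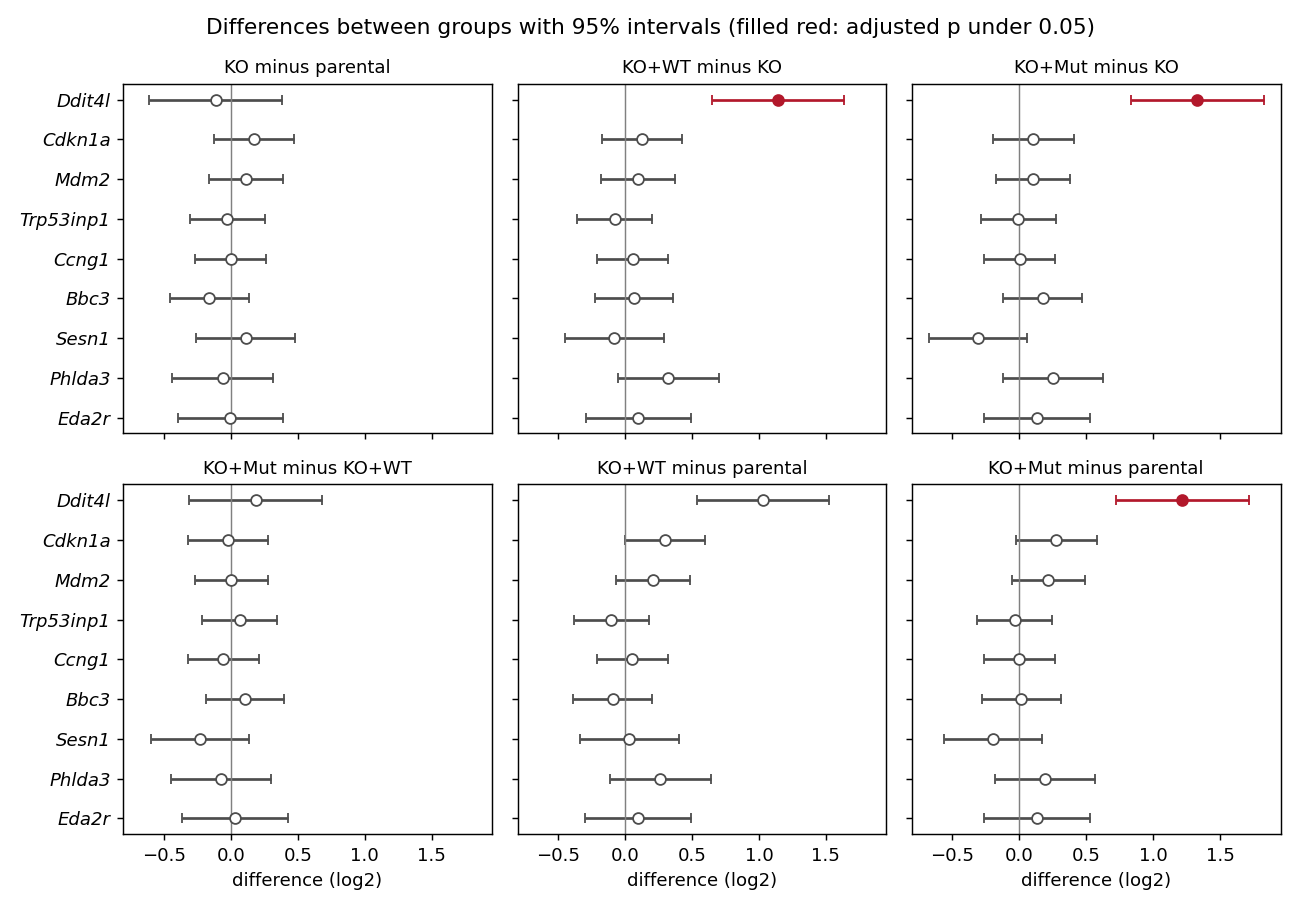
Differences between groups (log2, horizontal axis) of the 9 genes in 6 comparisons, with 95% limma intervals, and genes with an adjusted p under 0.05 filled in red. Ddit4l stands at 1.14 and 1.33 over KO and at 1.03 and 1.22 over parental cells, with an open point in KO+WT minus parental, and the intervals of the other genes include 0.

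Sesn1, the second growth signalling gene, encodes a sestrin, which restrains mTORC1 when amino acids are short. It read 6.42, 6.10 and 6.63 in KO+Mut, 6.42, 6.63 and 6.80 in KO+WT, 6.62, 6.74 and 6.72 in KO and 6.43, 6.41 and 6.91 in parental cells. The lowest array was KO+Mut replicate 2, and all groups overlapped. Sesn1 thus had a negative difference where Ddit4l rose, -0.31 in KO+Mut against KO (SE 0.17, limma adjusted p = 0.503). Phlda3, which blocks membrane recruitment of the survival kinase Akt, read 6.93, 7.05 and 6.94 in KO+Mut, 7.01, 7.0 and 7.14 in KO+WT, 6.30, 6.94 and 6.93 in KO and 6.57, 6.73 and 7.05 in parental cells. The KO+WT arrays were all above the KO arrays, of which replicate 1 was far below the other two. The difference of 0.32 (SE 0.17) did not pass (limma adjusted p = 0.491). With Ddit4l it was 1 of 2 genes of the 9 whose KO+WT arrays all lay above the KO arrays, as did 8.61% of all genes.

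The cell cycle gene and the feedback genes did not pass in any comparison. Cdkn1a encodes p21, the inhibitor of cyclin-dependent kinases through which p53 stops cells in G1. It read 8.86, 8.94 and 8.52 in KO+Mut, 8.96, 8.77 and 8.65 in KO+WT, 8.63, 8.65 and 8.72 in KO and 8.47, 8.37 and 8.66 in parental cells. KO+Mut replicate 3 lay among the KO and parental values, so the groups overlapped. Its largest difference was 0.30 in KO+WT against parental cells, with a 95% interval of -0.0032 to 0.60 (limma adjusted p = 0.471). Mdm2 encodes the ubiquitin ligase that degrades p53. It was nearly level among add-back arrays, at 9.32, 9.36 and 9.34 in KO+Mut and 9.37, 9.31 and 9.32 in KO+WT, against 9.19, 9.10 and 9.43 in KO and 9.14, 8.92 and 9.32 in parental cells. All groups overlapped, and the largest difference was 0.22, in KO+Mut against parental cells (SE 0.13, limma adjusted p = 0.573). Ccng1, for cyclin G1, which recruits a phosphatase to Mdm2, had the smallest differences, from -0.06 to 0.06. Its group means were 10.07 ± 0.02 in KO+Mut, 10.12 ± 0.07 in KO+WT, 10.06 ± 0.19 in KO and 10.07 ± 0.14 in parental cells (n = 3 arrays each, SD). 

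The genes of cell death and of p53 reinforcement gave the same result. Bbc3 encodes Puma, a BH3-only protein that frees Bax and Bak to open the mitochondrial membrane. It read 4.82, 5.12 and 4.96 in KO+Mut, 4.77, 4.88 and 4.94 in KO+WT, 4.66, 4.90 and 4.82 in KO and 5.20, 4.83 and 4.82 in parental cells. The highest array was parental replicate 1, and the groups overlapped. Its differences ran from -0.16 (KO against parental) to 0.17 (KO+Mut against KO), with adjusted p of 0.666 or more in limma. Trp53inp1, a nuclear protein that promotes p53 phosphorylation and takes part in autophagy, averaged 9.25 ± 0.05 in KO+Mut, 9.18 ± 0.08 in KO+WT, 9.26 ± 0.19 in KO and 9.29 ± 0.17 in parental cells. Eda2r, a receptor of the TNF receptor family for ectodysplasin A2, averaged 7.23 ± 0.17 in KO+Mut, 7.20 ± 0.14 in KO+WT, 7.10 ± 0.33 in KO and 7.10 ± 0.27 in parental cells (n = 3 arrays each, SD). Differences ran from -0.10 to 0.07 for Trp53inp1 and up to 0.13 for Eda2r, and the groups overlapped for both.

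For these 8 genes the intervals bound what the arrays could have missed. Over the 6 comparisons the outermost 95% limit was a 1.62-fold difference for Phlda3, 1.6-fold for Sesn1 and 1.51-fold for Cdkn1a. It was 1.44-fold for Eda2r, 1.41-fold for Mdm2, 1.38-fold for Bbc3, 1.31-fold for Trp53inp1 and 1.25-fold for Ccng1. A p past the threshold was reached by 0 of their 48 differences, and by 0 of 624 refits under other settings or without an array. The lowest adjusted p among those was 0.221. In KO against parental cells 0 of the 9 genes were called, against 0.239% of all genes. These limits come from single-gene intervals, and a call needed a larger difference, since its p was adjusted over all genes.

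The 9 genes as a group had medians close to those of all genes in KO against parental cells and between the add-backs. In the 4 comparisons of an add-back with KO or parental cells their medians were above those of all genes. The median difference was -0.0016 in KO against parental cells, 0.10 in KO+WT against KO, 0.11 in KO+Mut against KO, 0.0059 in KO+Mut against KO+WT, 0.10 in KO+WT against parental and 0.13 in KO+Mut against parental cells. The median over all genes lay between -0.0082 and 0.0036. Single arrays moved these medians by over 1.5 times. Without parental replicate 2 the median was -0.0133 in KO+Mut and 0.0009 in KO+WT against parental cells, and without parental replicate 3 it was 0.26 and 0.23. Without KO+Mut replicate 3 it was 0.034 in KO+Mut against parental cells, and without KO+WT replicate 2 it was 0.18 in KO+WT against parental cells. Against KO it was 0.05 (KO+Mut) and 0.017 (KO+WT) without KO replicate 1, 0.032 and 0.04 without replicate 2, and 0.19 and 0.16 without replicate 3. In each comparison of an add-back with KO or parental cells 7 of the 9 genes had a positive difference, though not the same 7, and these comparisons share arrays. Trp53inp1 was negative in all 4, Sesn1 in 3 and Bbc3 in KO+WT against parental cells. Over all genes 49.9% were positive in KO+WT against KO, 48.7% in KO+Mut against KO, 50.7% in KO+WT against parental and 49.5% in KO+Mut against parental cells. In KO against parental cells 3 of the 9 were positive, against 50.2% of all genes, and in KO+Mut against KO+WT 5 of 9, against 47.7%.

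Replicate 3 stood high in KO and parental cells. In the parental group it held the highest signal for 8 of the 9 genes, and in the KO group for 6 of 9, while 36.5% and 34.2% of all genes were highest on those arrays. The exceptions in parental cells were Bbc3, and in KO cells Bbc3, Sesn1 and Phlda3. Of 35 other p53 targets, 15 were highest on parental replicate 3 and 17 on KO replicate 3. In the add-back groups replicate 3 was highest for 3 of 9 genes in KO+Mut and 5 of 9 in KO+WT. What the replicate number stands for is not stated. Over all genes same-numbered arrays of different groups deviated together, and some of the calls that a block for the number changes are given beside the genes. Trp53inp2, 1 of the 35 other p53 targets, also rose with the block in KO+WT over KO (0.51, limma adjusted p = 0.0163). There 1.59% of all genes were called higher. Of the 15 pluripotency markers, Sox2 and Fgf4 fell with the block in KO+Mut against KO, where 1.06% of all genes were called lower. Sox2, Fgf4 and Lin28a fell in KO+Mut against parental cells (1.54% of all genes), and Lin28a in KO+WT (0.996%). Without the block Trp53inp2, Sox2, Fgf4 and Lin28a did not pass in these comparisons. The numbers did not pair the arrays of an add-back with those of KO, by the correlation of replicate 2.

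**Figure D3:**
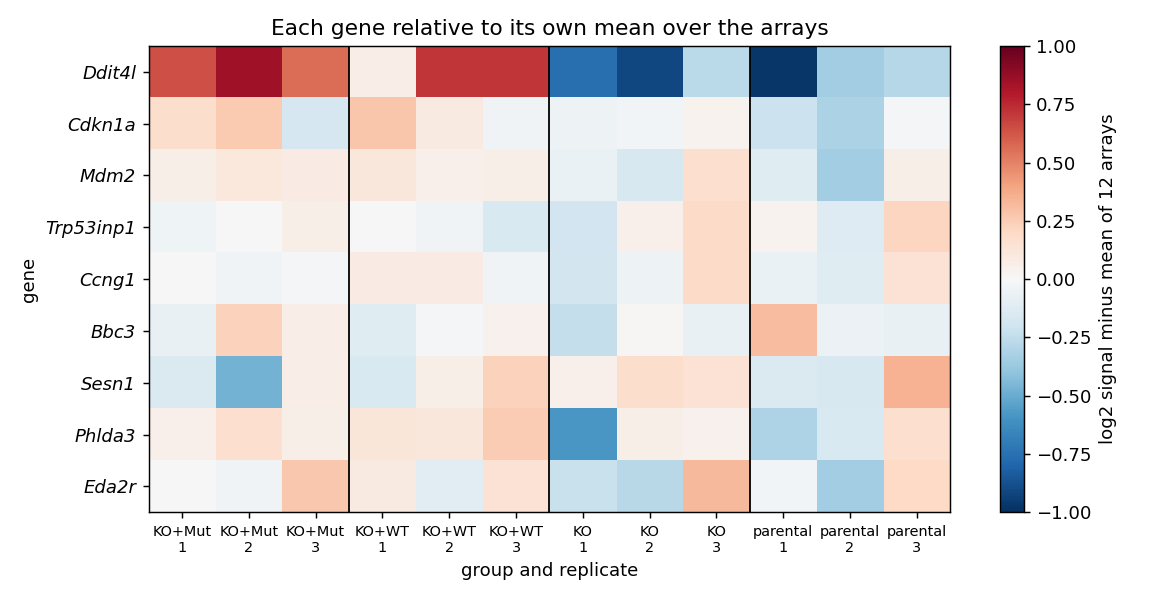
Each cell of the map is the log2 signal of a gene (rows) on an array (columns, by group and replicate) minus that gene's mean over the 12 arrays, red above and blue below. The Ddit4l row separates the 6 add-back arrays from the 6 others, although KO+WT replicate 1 is close to the mean. In the other rows KO and parental replicate 3 are often redder than the remaining arrays of their groups.

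A wider list of 40 p53 targets, 35 of them measured, was read in the same fit, and 0 passed in any of the 6 comparisons. The lowest adjusted p was that of Btg2, an antiproliferative gene. It read 6.78, 7.42 and 7.03 in KO+Mut, 6.81, 7.29 and 7.04 in KO+WT, 6.36, 6.86 and 6.93 in KO and 6.04, 6.28 and 6.46 in parental cells. All add-back arrays were above the parental arrays, by 0.82 in KO+Mut (SE 0.20, limma adjusted p = 0.0892) and 0.79 in KO+WT (limma adjusted p = 0.136). With the replicate block, which the correlations of same-numbered arrays allow for comparisons with parental cells, Btg2 rose in both (adjusted p = 0.00878 in KO+Mut and 0.0146 in KO+WT). Perp, a gene of desmosomes and cell death, also rose with the block, by 0.54 in KO+Mut and 0.64 in KO+WT (adjusted p = 0.0338 and 0.0231). These were 2 of the 35 in each comparison, against 1.59% (KO+Mut) and 1.07% (KO+WT) of all genes called higher with the block. Perp also read 6.53, 6.29 and 6.31 in KO cells, all above the parental arrays (6.11, 6.15 and 5.67). Its KO and KO+Mut arrays overlapped, with KO+Mut replicate 3 at 6.20. Pmaip1, which encodes the BH3-only protein Noxa, differed by 0.60 in KO+WT against parental cells (SE 0.15, adjusted p = 0.131), and its block p missed the threshold as well.

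In the wider list 27 of 35 genes were higher in KO+WT than in parental cells (median 0.13), against 50.7% of all genes. In KO+Mut 22 of 35 were higher than in parental cells (median 0.08), against 49.5%. In KO against parental cells 26 of 35 were higher (median 0.06), against 50.2% of all genes. These comparisons share the parental arrays. Against KO cells the counts were 21 of 35 in KO+WT (median 0.06) and 17 of 35 in KO+Mut (median -0.01), and between the add-backs 12 of 35 were higher in KO+Mut (median -0.03). The shares of all genes there were 49.9%, 48.7% and 47.7%.

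**Figure D4:**
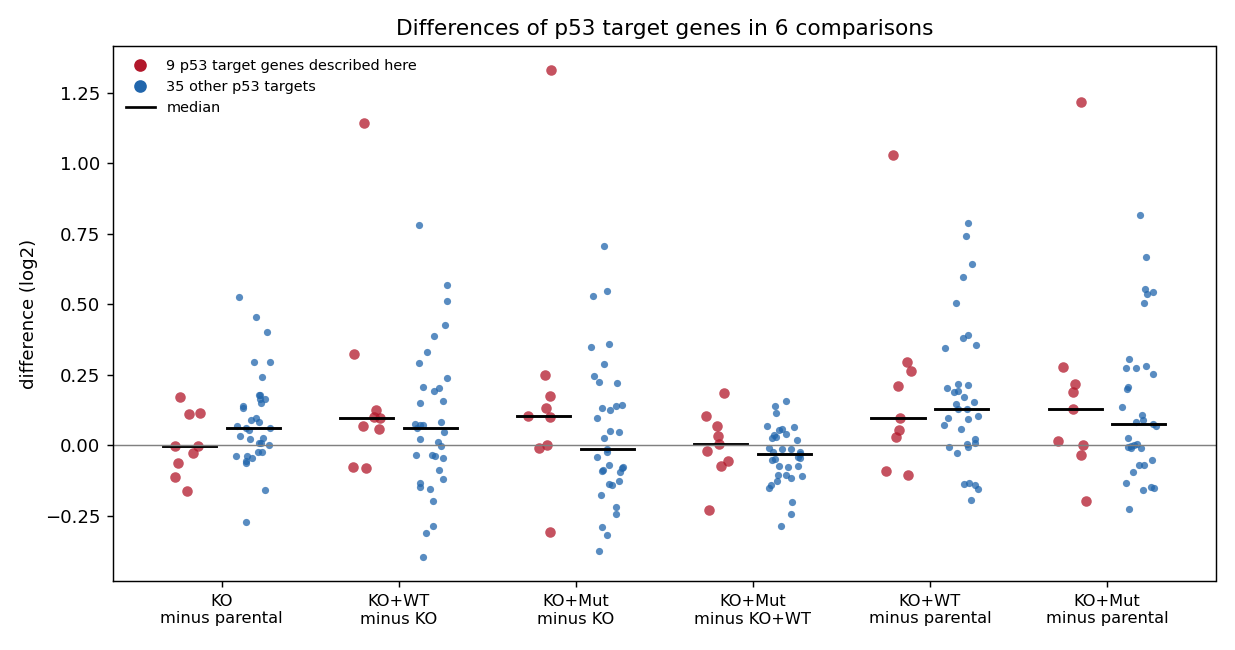
Differences (log2, vertical axis) of the 9 genes described here (red) and of 35 other p53 targets (blue) in the 6 comparisons, with black lines at the medians. The highest red point is Ddit4l except in KO against parental cells, where it is Cdkn1a at 0.17, and the highest blue point is Btg2 at 0.82 in KO+Mut minus parental.

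The genes that act on p53 were read as another list, of 21 measured genes, and 0 passed. Trp53 itself was not analysed here. The lowest adjusted p was that of Trp53bp1, a DNA break sensor that also binds p53, at -0.40 in KO+Mut against KO (SE 0.12, limma adjusted p = 0.171). Of 11 genes of the DNA damage kinases and their partners 0 passed. Of these, 10 of 11 were negative in KO+Mut against KO, KO+WT against parental and KO+Mut against parental cells (medians -0.18, -0.17 and -0.20). Over all genes 48.7%, 50.7% and 49.5% were positive there, and these comparisons share arrays. Chek2, a kinase that phosphorylates p53, read 6.71, 6.81 and 7.01 in KO+Mut, 6.50, 6.81 and 6.75 in KO+WT, 6.85, 7.09 and 7.30 in KO and 7.16, 7.25 and 7.51 in parental cells. It fell by 0.62 in KO+WT against parental cells with the replicate block (adjusted p = 0.0127) but not without it (0.109), and in KO+Mut with the block by 0.46 (adjusted p = 0.0278). With the block 0.996% (KO+WT) and 1.54% (KO+Mut) of all genes were called lower than in parental cells.

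Further genes with the same outputs held few calls. Among 17 further CDK inhibitors and G1 cyclins, Cdkn2c, an inhibitor of the kinases Cdk4 and Cdk6, rose in KO+Mut. The rise was 0.92 over KO (SE 0.16, limma adjusted p = 0.0131) and 0.78 over parental cells (limma adjusted p = 0.039). Cdkn2c was the 1 gene of 17 called in each, against 1.12% (over KO) and 0.654% (over parental) of all genes called higher. It read 4.02, 4.18 and 4.03 in KO+Mut, 3.76, 3.69 and 3.64 in KO+WT, 3.35, 2.90 and 3.22 in KO and 3.65, 3.05 and 3.18 in parental cells. KO+Mut was above all other arrays, at percentiles 33.9 to 54.9 of the probe sets over all arrays. When each array was left out in turn, the call over KO held in 4 of 6 fits (adjusted p up to 0.0777) and that over parental cells in 1 of 6 (up to 0.176). The G1 cyclin Ccnd1 differed by -0.99 in KO+WT against parental cells (limma adjusted p = 0.0728) and fell with the block (adjusted p = 0.0208), as did Ccne1, by 0.46 (adjusted p = 0.0283). In KO+Mut against parental cells the block put the same 2 cyclins past the threshold, Ccnd1 at -0.98 and Ccne1 at -0.53 (adjusted p = 0.0156 and 0.0114), and also Ccnd2 at -0.90 (adjusted p = 0.0181). Of all genes the block called 0.996% (KO+WT) and 1.54% (KO+Mut) lower than in parental cells. Of 11 other mTORC1 inhibitors, Castor1, an arginine sensor, fell by 0.82 in KO against parental cells (SE 0.15, limma adjusted p = 0.0464), where 0.203% of all genes were called lower. It read 6.78, 6.59 and 6.34 in KO+Mut, 6.91, 6.80 and 6.43 in KO+WT, 6.09, 5.95 and 6.12 in KO and 6.91, 6.84 and 6.86 in parental cells. Leaving out any 1 of the 6 KO and parental arrays ended the call (adjusted p up to 0.216). All add-back arrays were above the KO arrays, by 0.51 in KO+Mut (limma adjusted p = 0.139) and 0.66 in KO+WT (limma adjusted p = 0.0633), which passed in KO+WT with the block (adjusted p = 0.029). With the block 1.59% of all genes were called higher in KO+WT than in KO. By the correlation of replicate 2 the numbers did not pair the arrays of that comparison. Ddit4, the paralog of Ddit4l, was in this list and did not pass. Of 14 other Bcl2 family genes 0 passed, and with the block Bmf, a BH3-only gene, fell by 0.59 in KO+Mut against parental cells (adjusted p = 0.0402). The block called 1.54% of all genes lower there.

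The 2-cell-like markers rose with add-back, as Ddit4l did, and few genes of the other lists passed. Of 15 measured markers of 2-cell-like cells, the rare stem cells that resemble 2-cell embryos, 14 rose in KO+Mut and 11 in KO+WT over KO. Of all genes 1.12% (KO+Mut) and 0.73% (KO+WT) were called higher there. The mean signal of the 15 markers ran from 7.85 to 8.91 on KO+Mut arrays, 6.70 to 8.38 on KO+WT arrays, 2.64 to 2.85 on KO arrays and 3.86 to 4.70 on parental arrays. In KO against parental cells 3 of the 15 were called lower (median -1.61), against 0.203% of all genes, while Ddit4l differed by -0.11. KO+WT replicate 1, the lowest add-back array for Ddit4l, also had the lowest mean of these markers among the add-back arrays. Within KO+Mut the order differed, and replicate 3 had the highest mean (8.91) and the lowest Ddit4l signal (6.37). Of 16 immediate early genes, which respond to stress and to growth factors, Jun rose over KO, by 1.25 in KO+Mut (SE 0.22, limma adjusted p = 0.0122) and 1.04 in KO+WT (limma adjusted p = 0.0453). Jun read 6.0, 6.53 and 6.25 in KO+Mut, 5.83, 6.22 and 6.12 in KO+WT, 5.39, 5.09 and 4.56 in KO and 5.56, 5.33 and 5.0 in parental cells. With each array left out in turn, the KO+WT call of Jun held in 1 of 6 fits (adjusted p up to 0.159) and the KO+Mut call in 5 of 6 (up to 0.0777). Fos rose by 0.94 in KO+Mut over parental cells (limma adjusted p = 0.0247), where 0.654% of all genes were called higher. Of 16 interferon response genes 0 passed against KO, and Isg20 rose by 0.69 in KO+Mut over parental cells (limma adjusted p = 0.0235). Isg20 also read 4.99 to 5.12 in KO cells, above the parental arrays (4.585 to 4.70). Of 14 primitive endoderm markers Lama1 and Lamb1 fell in both add-backs against parental cells, where 0.338% (KO+Mut) and 0.23% (KO+WT) of all genes were called lower. With the block 5 of 14 fell there, against 1.54% (KO+Mut) and 0.996% (KO+WT) of all genes. The mean of the endoderm list ran from 5.52 to 5.66 in KO+Mut, 5.63 to 5.76 in KO+WT, 5.57 to 6.0 in KO and 6.09 to 6.69 in parental cells. In KO against parental cells the median difference of the 14 endoderm markers was -0.64. Without the block 0 of 14 passed there, and 0 of 14 against KO in either add-back. With the block Lama1 and Pdgfra fell in KO against parental cells, where 0.437% of all genes were called lower. Pdgfra also fell with the block in KO+Mut against KO (1.06% of all genes), where the replicate numbers did not pair the arrays. The part of these groups in the Ddit4l difference was not tested. In bulk samples, a change in the share of cells of a type and a change of RNA per cell cannot be told apart.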

How the data were processed

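The deposited table holds log2 signals of 41345 probe sets on 12 Affymetrix arrays, labelled from 100 ng of total RNA per the labels' protocols. The submitters' processing notes name Transcriptome Analysis Console, and how the arrays were normalized, and on which build, is not stated. The array annotation gave 1 symbol to 23521 probe sets, several to 1814 and none to 16010. The probe set with the highest mean stood for each of 22180 genes, 1082 of which had more than 1.

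All arrays were fitted with limma 3.58.1 in R 4.3.3, with a mean per group, 6 comparisons, and Benjamini-Hochberg adjustment over all genes in each. The script was tested on simulated data. No 2 arrays held identical values, and 0 columns were left unused. Signal on an array has no sampling depth, and precision is limited by 3 arrays per group. Genes named in the text are the members, Dppa2 and Dppa4, and in other lists those called or up to 3 with the lowest p. Some genes called with the block alone, Ddit4 and the marker examples were added after their values were seen. The members and lists were chosen with earlier results of these data known. Promoter sequences are from RefSeq.

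The titles number the replicates. After subtraction of group means, arrays with the same number correlated at 0.13 to 0.47 (all 3 numbers) in KO+Mut against KO+WT and in the 3 comparisons with parental cells. By these correlations the numbers pair the arrays there. Replicate 2 correlated at 0.0643 (KO+WT) and 0.0816 (KO+Mut) with KO. The main fit held no block in any comparison, and the block was fitted in all 6 as an alternative. The alternatives were a replicate block, median centring, repeated quantile normalization, leaving out dim genes (below percentile 25), trended robust variances, the 6 arrays alone, averaging all probe sets of a gene, and leaving out each array. Bax and Trp53 were not analysed here.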

Additional observations from a re-analysis of the deposited data

How the results depend on the processing

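With the replicate block the genes called numbered 137 in KO against parental cells (53 without it), 494 in KO+WT against KO (184), 716 in KO+Mut against KO (282), 458 in KO+WT against parental (122) and 695 in KO+Mut against parental cells (220). In KO+Mut against KO+WT limma called 0 with and without it. The block brought the members called to 1 in KO+WT against parental cells, which was 0 without it, and changed no other member's call. In the comparisons of an add-back with KO the numbers did not pair the arrays by the correlation of replicate 2, although each array correlated best with its own number in 6 of 6 cases. In fits of the 6 arrays alone, 27, 75 and 52 genes were called in KO against parental, KO+WT against KO and KO+WT against parental cells. The members called in KO+WT against KO fell to 0 there, with median centring and with repeated quantile normalization. Without 1 array, calls ran from 19 to 31 in KO against parental, 86 to 164 in KO+WT against KO, 119 to 207 in KO+Mut against KO, 51 to 131 in KO+WT against parental and 104 to 159 in KO+Mut against parental cells, and the members called from 0 to 1 in each of the last 4. Median centring moved the share of calls that were higher to 75.2% from 88.0% in KO+WT against KO, to 72.9% from 87.9% in KO+Mut against KO, to 52.8% from 65.9% in KO+Mut against parental and to 48.8% from 58.2% in KO+WT against parental cells. With the block these shares were 71.5%, 67.0%, 50.8% and 51.7%. The cause was not tested. The Ddit4l differences of the add-backs from KO and parental cells kept their sign in every setting. Its difference changed sign in 2 settings in KO against parental cells and in 1 in KO+Mut against KO+WT. Of the 48 differences of the other 8 genes, which did not pass, 22 changed sign in some setting. Differences near 0 change sign easily, so these counts do not set Ddit4l apart from the other genes.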
